A study of Mus musculus with 6 samples.

Results

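*Cd47* encodes a cell surface protein with an immunoglobulin domain outside the cell, a set of membrane-spanning segments and a short tail in the cytoplasm. Here its level was examined in cultured muscle stem cells (MuSCs) that lack the RNA-binding protein QKI, together with the annotated transcripts that decide how its tail ends. It is 1 of the 398 genes in the authors' deposited table, and it was chosen by its values in that table. MuSCs are the resident stem cells of skeletal muscle. QKI-cKO mice carried *Qk* alleles with loxP sites around exon 2 and 1 Pax7-CreERT2 allele, so that the tamoxifen-activated Cre was driven from the *Pax7* locus in MuSCs. QKI-ctrl littermates carried the same floxed *Qk* alleles and no Cre allele. Both genotypes were on a C57BL/6 background, of both sexes and 6 to 8 wk old, and both received 4-hydroxytamoxifen on 5 consecutive days. An effect of carrying Cre and an effect of losing QKI therefore cannot be told apart in these groups. The series holds 3 QKI-cKO and 3 QKI-ctrl samples, described as biological replicates, and whether each came from 1 mouse or from pooled mice is not stated. MuSCs were sorted as ITGA7-positive cells without CD45, CD11b, CD31 or Sca1, kept in growth medium for 72 h, and sequenced as polyadenylated RNA.

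CD47, also called integrin-associated protein, binds SIRPα on macrophages, and this contact restrains engulfment of the cell that carries it. It also binds thrombospondin-1 and associates with integrins. Alternative splicing (AS) of its last exons gives proteins that differ in the length of the tail. QKI is an RNA-binding protein of the STAR family that regulates AS through QKI response elements (QREs) with a core of ACUAAC or ACUAAU.

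The annotated ends of *Cd47* are shown first, because the tail isoform is decided by exons of a few codons. *Cd47* (ENSMUSG00000055447.19) lies on the plus strand of chromosome 16 of GRCm38 from 49800533 to 49915010. GENCODE vM21 lists 10 transcripts for it, 9 coding and 1 noncoding, and 0 other genes overlap its locus. The last coding exon that all 9 coding transcripts share has 32 nucleotides, from 49906781 to 49906812. After it, the coding transcripts end in 4 ways. The sequences below run from the first base of this shared exon to the stop codon, as copied from the GENCODE transcripts on chromosome 16, with the bases of the short alternative exons in capitals.

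No short exon: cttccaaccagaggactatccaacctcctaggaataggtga
25-nt exon: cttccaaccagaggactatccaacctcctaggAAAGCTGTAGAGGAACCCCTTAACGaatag
29-nt exon: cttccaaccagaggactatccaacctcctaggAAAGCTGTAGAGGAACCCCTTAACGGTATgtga
25-nt and 33-nt exons: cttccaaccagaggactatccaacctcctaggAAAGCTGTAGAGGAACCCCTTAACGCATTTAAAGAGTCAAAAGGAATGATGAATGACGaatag

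Without a short exon, 6 coding nucleotides follow the shared exon, and the reading frame ends at a TGA that starts at 49910875. This end is annotated in 4 coding transcripts, Cd47-201, Cd47-202, Cd47-206 and Cd47-209. The first short exon has 25 nucleotides, from 49908054 to 49908078, 1241 nucleotides beyond the shared exon. Its length is not a multiple of 3, so its inclusion shifts the frame of the last exon to a TAG that starts at 49910871. In Cd47-203, which holds the 25-nt exon alone, the protein is 7 codons longer at this end.

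The second short exon has 33 nucleotides, from 49908703 to 49908735. Its length is a multiple of 3, so it adds codons without moving the frame. Both transcripts that hold it, Cd47-205 and Cd47-208, also hold the 25-nt exon. Their tail is 18 codons longer than the tail without a short exon, the largest difference among the 4 annotated ends.

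The remaining end uses a longer version of the first exon. In Cd47-204 and Cd47-207 this exon has 29 nucleotides and runs to 49908082, 4 bases (GTAT) beyond the end of the 25-nt exon. The last exon of both transcripts starts 5 nucleotides later than in the others, at 49910874. The frame then returns to the TGA at 49910875, with a tail 8 codons longer. The stop codon of each end thus lies within the first bases of the last exon. The ends differ in their coding part by the short exons and by how many bases of the last exon precede the stop codon.

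**Figure D1:**
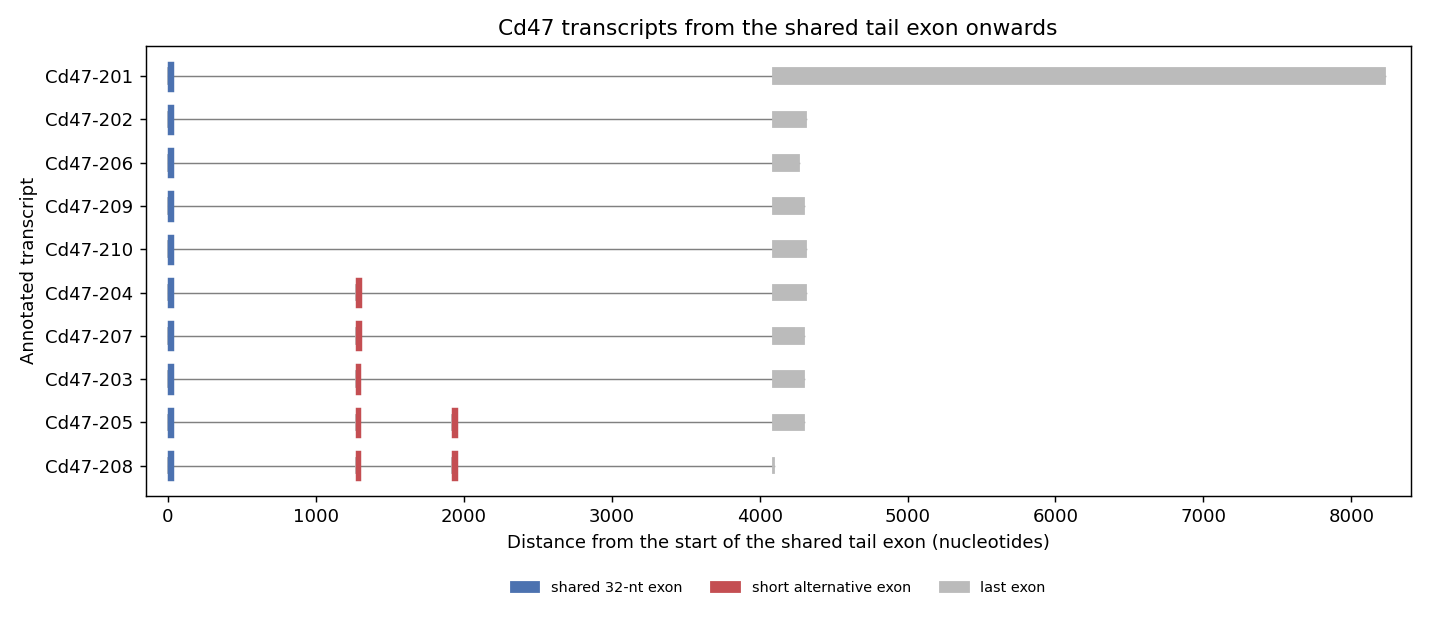
The 10 annotated *Cd47* transcripts from the shared 32-nt exon onwards, drawn to scale with the distance from the start of that exon in nucleotides on the x axis and 1 transcript per row. Blue boxes are the shared exon, red boxes the short alternative exons and grey boxes the last exons. The 25-nt or 29-nt exon appears in 5 transcripts and the 33-nt exon in 2, both of which also hold the 25-nt exon.

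Coding exons before the tail vary too. A 63-nt exon from 49869018 to 49869080 is present in 5 of the 9 coding transcripts, and a 108-nt exon from 49894177 to 49894284 in 8. Before them, coding stretches of 46 and 348 nucleotides each occur in 4 of the 9. A 235-nt stretch with the same end as the 348-nt stretch occurs in 5. The transcripts are 1032 to 5250 nucleotides long. Most of this range comes from the last exon, which has 4142 nucleotides in Cd47-201 and 8 in Cd47-208. The annotated Cd47-208 has 1026 coding nucleotides of 1032 and so holds almost no untranslated sequence. Whether so short a transcript exists in these cells was not tested. An FPKM value is divided by transcript length, so the value of the gene rests on how fragments were assigned among its transcripts. As annotated in GENCODE vM21, these differ 5.09-fold in length. The study names another GENCODE release for its splicing analysis and none for its FPKM values. The transcript models behind those values may therefore differ from the ones described here. The FPKM of each transcript is not used here, and the part of transcript length in the *Cd47* values was not tested.

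The core of the QRE was searched in the longest transcript, Cd47-201, as ACTAAC and ACTAAT on the strand of the transcript. It has 2 matches, an ACTAAC 346 nucleotides and an ACTAAT 1562 nucleotides after the stop codon. Of 2738 protein-coding transcripts within 10% of its length, 64.1% have at least 1 match, with a median of 1. The 4 tail sequences above hold 0 matches. Introns beside the short exons were not searched.

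The level of the gene was compared next. In the authors' deposited table, *Cd47* has a pooled value of 29.2 FPKM in QKI-cKO MuSCs and 20.2 FPKM in QKI-ctrl MuSCs. This is 8.97 FPKM more in QKI-cKO, a ratio of 1.44 and a log2 ratio of 0.53. The table holds 1 pooled value per gene and group and no value per replicate. No SD or test between replicates could therefore be computed, whether the 3 replicates of each group overlapped is unknown, and the depth behind the values is unknown. In these bulk samples, more RNA per cell and more cells with the transcript cannot be told apart.

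All 398 genes in the table were marked as significant by the authors, and 228 of them (57.3%) were higher in QKI-cKO. *Cd47* is among them because it was chosen there, so its direction carries no further weight. The study counts slightly more genes as up-regulated than these pooled values do, and the difference was not examined. The 228 higher genes had a median log2 ratio of 0.55, and *Cd47* stood 119th among them, above 109 others. Their log2 ratios began at 0.29, so smaller changes have no part in this median and place. By the absolute log2 ratio *Cd47* was 235th of all 398 genes. Both places depend on how genes at low FPKM are treated. Among the 342 genes whose higher value reached 1 FPKM, *Cd47* was 91st of the 200 higher genes and 179th of all. With 1 FPKM added to every value, *Cd47* was 64th of the 228 higher genes, whose median log2 ratio was then 0.40, and 130th of all 398.

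**Figure D2:**
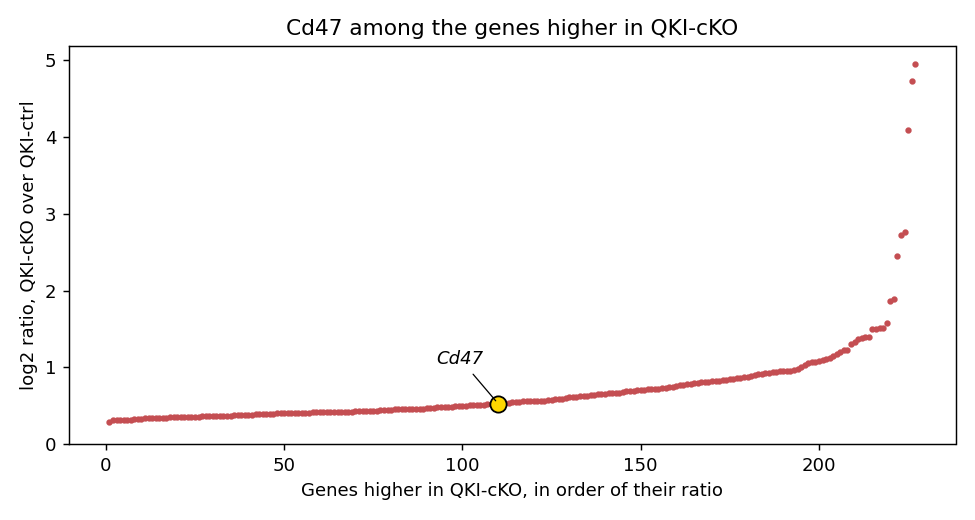
Log2 ratio of QKI-cKO over QKI-ctrl pooled FPKM for genes higher in QKI-cKO, in order of that ratio, with *Cd47* in yellow. The 227 points leave out 1 gene listed at 0 FPKM in QKI-ctrl, and *Cd47*, at 0.53, lies near the middle of the order and in the low part of a range that runs from 0.29 to 4.95.

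With values given per length of transcript, *Cd47* was 78th of 398 genes in QKI-cKO and 100th in QKI-ctrl. This is 4.73 times the median gene of the table in QKI-cKO (6.17 FPKM) and 3.21 times that in QKI-ctrl (6.29 FPKM). The added FPKM placed it 44th among the 228 higher genes. Of the 77 genes with an absolute log2 ratio above 1, 72 were below *Cd47* in FPKM in both groups. The 77 include the genes at 0 FPKM in 1 group. Of all 398 genes, 80.4% were below *Cd47* in QKI-cKO and 74.9% in QKI-ctrl. Among the 89 genes whose mean log2 FPKM was within 1 of that of *Cd47*, itself included, 47 were higher and 42 lower in QKI-cKO. Of these 47, *Cd47* had the 14th largest ratio, and their median log2 ratio was 0.45.

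**Figure D3:**
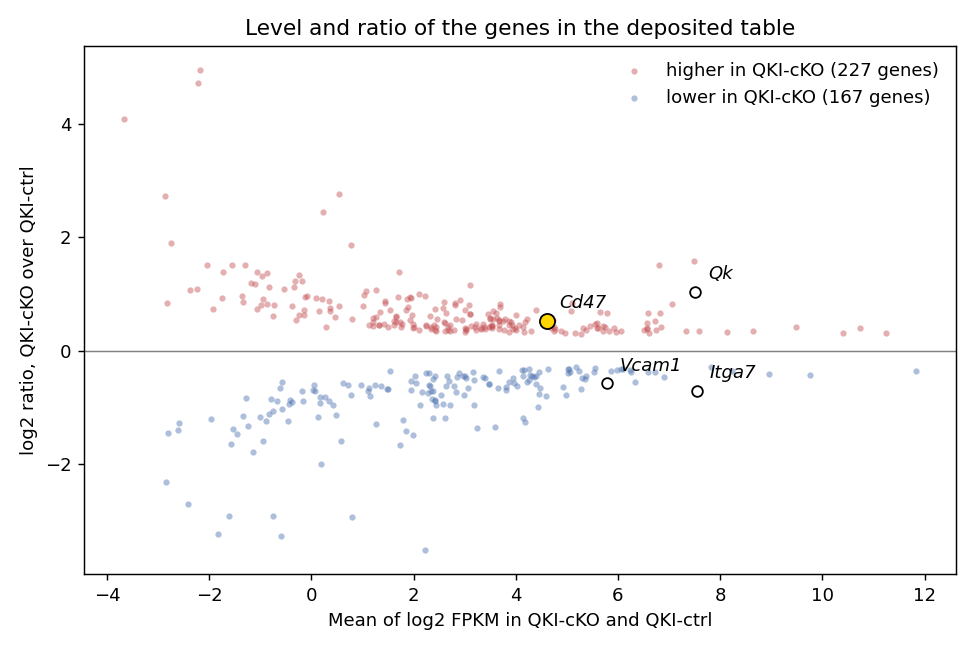
Log2 ratio of QKI-cKO over QKI-ctrl against the mean log2 FPKM of both groups, for the 394 genes above 0 FPKM in both, red for higher and blue for lower in QKI-cKO. *Cd47* (yellow) has a log2 ratio of 0.53, below that of *Qk* at 1.04, while *Itga7* and *Vcam1* lie below 0 at -0.71 and -0.58.

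The targeted gene *Qk* is listed at 262 FPKM in QKI-cKO and 128 FPKM in QKI-ctrl, a log2 ratio of 1.04. Only exon 2 was deleted, and the value covers the whole gene, so the pooled value of *Qk* does not check the labels. The sort marker *Itga7*, the integrin chain used to select MuSCs, had 145 FPKM in QKI-cKO and 237 FPKM in QKI-ctrl, a log2 ratio of -0.71. *Vcam1*, an adhesion receptor of MuSCs, had 44.9 FPKM in QKI-cKO and 67.1 FPKM in QKI-ctrl, a log2 ratio of -0.58. Both marker genes were listed with the opposite direction to *Cd47*. They are the members present from a list of 12 markers of MuSCs and myoblasts, and the other 10 have no values in this table. Surface genes of the table were not counted by direction. The integrin chain *Itgb4*, for example, was higher in QKI-cKO like *Cd47*, with a log2 ratio of 0.69.

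The partners of CD47 were looked up in a list of 35 genes. It holds the thrombospondins (*Thbs1* to *Thbs4*), the receptor gene *Sirpa*, integrin chains such as *Itgav* and *Itgb3*, the tail-binding ubiquilins *Ubqln1* and *Ubqln2*, inhibitory G protein subunits and *Qpctl*, the enzyme that modifies the CD47 amino terminus for SIRPα binding. The table lists 0 of the 35, of which 34 occur under these symbols in GENCODE vM21. It also lists 0 of 99 other annotated genes whose symbol is Cd and a number, 0 of 12 markers of macrophages and leukocytes, 0 of 4 erythroid, 0 of 4 endothelial and 0 of 3 fibro-adipogenic markers. The table holds 330 of 21951 annotated protein-coding genes (1.503%), so a count of 0 says little of a list of these sizes. Only genes marked as significant were kept, and the study also states cutoffs on fold change and on mean level. Read as log2 ratios, the stated fold-change cutoffs lie above 1. An absolute log2 ratio above 1 was reached by 77 of the 398 listed genes, and *Cd47*, at 0.53, was not among them. On that reading the listed genes were not held to these cutoffs, and the fold-change cutoff behind the table is not known. A gene that is not listed may thus be unchanged, below detection, changed by too little or changed with too much spread. *Cd47* levels could thus not be set beside those of the ligands looked up, nor beside the markers of other cell types in these lists. Genes outside the lists were not looked up for this.

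On chromosome 16 the table lists 11 genes, 8 higher and 3 lower in QKI-cKO. Over the whole table, 228 of 398 genes (57.3%) were higher, and a count over 11 genes is too small to set apart from that share. *Cd47* had the second highest FPKM of them in both groups, after *Snai2*, a transcriptional repressor of the Snail family, which had 31.2 FPKM in QKI-cKO and 24.0 FPKM in QKI-ctrl. The other 10 genes all lie before *Cd47* on the chromosome. The nearest, *P3h2*, a prolyl hydroxylase of collagen, lies 23.7 Mb away and had the opposite direction, with 4.33 FPKM in QKI-cKO and 5.66 FPKM in QKI-ctrl.

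Genes with a pattern like that of *Cd47* were those nearest in log2 ratio among genes whose mean log2 FPKM was within 1 of its own. With only 1 value per group, this likeness rests on 2 values per gene and describes the table. The choice of genes depends on the measure. With a window of 0.5, or with Euclidean distance over both log2 values, *Adgrg3* was the 1 gene of the following 5 that was chosen again. *Zfp7*, a zinc finger gene, had 15.2 FPKM in QKI-cKO and 10.6 FPKM in QKI-ctrl. *Apobec2*, a muscle member of the APOBEC family, had 16.1 FPKM in QKI-cKO and 11.2 FPKM in QKI-ctrl. *Adgrg3*, an adhesion G protein-coupled receptor, was closest to *Cd47* in level among these genes, with 31.96 FPKM in QKI-cKO and 21.99 FPKM in QKI-ctrl. *Dok1*, an adaptor below tyrosine kinases, had 17.4 FPKM in QKI-cKO and 12.2 FPKM in QKI-ctrl. The fifth gene was *Gdpd5*, a glycerophosphodiester phosphodiesterase, with 15.4 FPKM in QKI-cKO and 10.5 FPKM in QKI-ctrl. Their log2 ratios ran from 0.52 to 0.55.

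**Figure D4:**
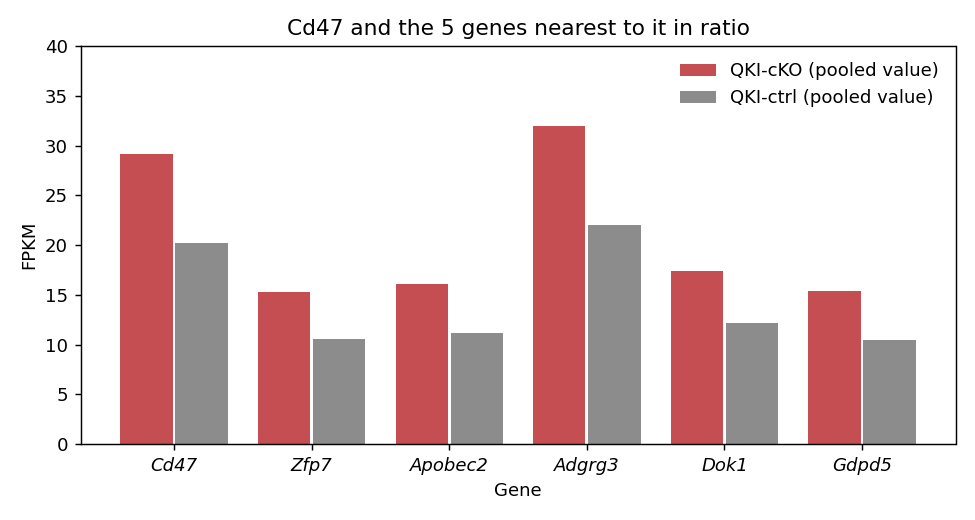
Pooled FPKM of *Cd47* and the 5 genes nearest to it in log2 ratio, with QKI-cKO in red left of QKI-ctrl in grey, 1 pooled value per bar and no error bar because no value per replicate is given. Every pair has a ratio of 1.43 to 1.46, and *Adgrg3* and *Cd47* stand highest. Of the 5 genes, *Adgrg3* alone stayed among the nearest under both other measures of likeness.

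The gene level and the tail isoform are separate measures. The FPKM values give the summed level of all *Cd47* transcripts and say nothing of which of the 4 tails they carry. The supplementary list of skipped exon events that accompanies the study names *Cd47* at the 25-nt, 29-nt and 33-nt exons printed above. The reads behind those events are not used here, so the ratio of 1.44 was not divided among the tail forms.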

How the data were processed

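The study's methods state that paired-end reads of the 6 libraries (3 QKI-cKO and 3 QKI-ctrl, grouped by title) were trimmed with Trimmomatic, aligned with STAR to mm10/GRCm38 and compared with the Cufflinks suite. In the table deposited by the authors, FPKM values (fragment counts divided by transcript length and library size) had been scaled between libraries by geometric means and pooled into 1 value per gene and group. The file names its groups only q1 and q2. They were read as QKI-ctrl and QKI-cKO, the order in which *Myl1*, *Myl4*, *Myh3*, *Sspn* and *Mybph*, named by the study as down-regulated, are all lower in QKI-cKO, and every direction rests on that reading. The authors' fold changes, test statistics, p-values and q-values were not used. Depth is unknown, and 0 columns of single samples were left unused.

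The log2 ratio was computed as QKI-cKO over QKI-ctrl without a pseudocount, and genes were ranked by ratio and FPKM. No test was run, since no value per replicate is given. After their version was dropped, 397 of the 398 gene IDs occurred in GENCODE vM21 (GRCm38). Locus starts, which count from 0, were raised by 1. Ends of *Cd47* and their sequences were read by script from the annotation and transcript sequences. Named genes were *Cd47*, *Qk*, the 5 nearest genes in ratio, the neighbours on the chromosome and list members in the table. *Snai2* and *Itgb4* were named after their values were seen. *Cd47*, the lists and the rules were chosen with earlier results of these data known. Alternatives were pseudocounts of 0.1 and 1 FPKM, a minimum of 1 FPKM, leaving out predicted genes, and other measures of likeness. Python 3.11.15, pandas 2.3.3, numpy 2.4.6 and matplotlib 3.10.9 were used.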

Additional observations from a re-analysis of the deposited data

How the results depend on the processing

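The log2 ratio of *Cd47* was 0.53 with 0.1 FPKM added to both values and 0.51 with 1 FPKM added, against 0.53 with none. Its place by absolute log2 ratio moved more. It was 235th of all 398 genes, 179th of the 342 genes whose higher value reached 1 FPKM, 180th of the 337 genes without predicted genes, and 130th of 398 with 1 FPKM added. The number of genes higher in QKI-cKO was 200 with the minimum of 1 FPKM and 205 without predicted genes, within 1.5 times of 228. The nearest genes depend on the measure. With a window of 0.5 in mean log2 FPKM, and with Euclidean distance over both log2 values, 1 of the 5 nearest genes was shared with the main list each time, *Adgrg3*. The search for the QRE core within 200 or 100 bases of the short exons was not run, since no genome sequence was used here. No paired analysis was possible because the table holds 1 pooled value per group, and for the same reason no replicate could be left out.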

Other observations

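By Euclidean distance over both log2 FPKM values, the genes nearest to *Cd47* were *Scand1*, *H6pd*, *Pgf*, *Adgrg3* and *Kctd12*. *Scand1* had 28.5 FPKM in QKI-cKO and 20.3 FPKM in QKI-ctrl. *H6pd*, an enzyme that makes NADPH in the endoplasmic reticulum, had 30.8 FPKM in QKI-cKO and 20.7 FPKM in QKI-ctrl. *Pgf*, a growth factor of the VEGF family, had 29.4 FPKM in QKI-cKO and 22.4 FPKM in QKI-ctrl.

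In the annotation, the 25-nt exon and its 29-nt version start at the same base, and the 29-nt version is always joined to the last exon that starts 5 nucleotides later. Both transcripts of this kind end their frame at the same TGA as transcripts without a short exon, while the 3 transcripts with the 25-nt exon end at the TAG 4 bases earlier.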
